A study of Nasonia vitripennis with 51 samples.

Results

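DNA methylation was compared between heads and bodies of adult females of the parasitoid wasp Nasonia vitripennis that had fed on 5-aza-2'-deoxycytidine (5-aza-dC). The comparison used 33 of the 51 samples of the study, 15 of heads and 18 of bodies (thorax and abdomen), chosen by the feeding regime and tissue in their labels. Every sample was a pool of 10 females of AsymC, a wild-type strain cured of the bacterium Wolbachia, and the females had been fed 20% sucrose. In all 33 samples the sucrose held 10 µM 5-aza-dC, given for 24 h (7 head and 9 body samples) or for 48 h (8 head and 9 body samples). Females were harvested 0, 24 or 48 h after feeding, which gave 6 combinations of regime and harvest time with 2 or 3 samples of each tissue. The 18 sucrose samples without inhibitor (9 of heads, 9 of bodies), fed for 24 h only, served for reference. The labels call the samples biological replicates and do not say whether heads and bodies came from the same females, so samples were treated as independent and p-values measure the spread between these samples.

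In insects, DNA methylation is sparse and falls mainly on CpG dinucleotides inside the bodies of a subset of genes, most of them broadly expressed. Maintenance methyltransferases copy the mark to the new strand after replication. The cytidine analogue 5-aza-dC is built into replicating DNA, where it traps these enzymes. Heads hold the brain, the compound eyes and the antennae, while bodies hold flight muscle, gut, fat body and ovaries. A level between 0 and 100% in pooled tissue cannot be resolved into the cell types or alleles that carried the mark, and no cell type was measured here.

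Whole-genome bisulphite sequencing gave, for each CpG and sample, the methylated reads and the total reads. Of 4150376 CpGs in the table, 1086293 (26.2%) had reads in all 33 samples. Methylation was rare among them: 53.7% had a mean level under 2%, and 2731 (0.251%) had a mean of 50% or more and are called highly methylated below. The 20459 CpGs with a mean of at least 10% were tested one by one, with a median of 25 reads per value in heads and 28 in bodies. Total reads over the table ranged from 10955117 to 200008536 per sample. In 3 samples values stood apart. In the 24 h regime, head replicate 1 of the 48 h harvest had 5.45 reads per CpG on average. In the 48 h regime, body replicate 1 of the 0 h harvest had 6.14 reads, and body replicate 1 of the 24 h harvest had a mean level of 7.67% at CpGs with almost no methylation, against 0.0562% to 4.45% in the other 32. The counts and mean differences they move are given with and without them.

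Highly methylated CpGs were more methylated in heads than in bodies in every combination of regime and harvest time. The mean level over the 2731 CpGs ran from 87.0% to 88.9% in the 15 head samples, with a median of 87.9%. It ran from 79.9% to 83.1% in the 18 body samples, with a median of 81.8%. No head sample overlapped any body sample. Heads averaged 87.9% ± 0.558 (SD, n = 15) and bodies 81.7% ± 0.886 (SD, n = 18), a difference of 6.24 points averaged over the 6 combinations (SE 0.242, 95% interval 5.77 to 6.72). A permutation test of tissue labels within combinations, two-sided with 100000 resamples, gave p = 1e-05, the smallest these resamples can give. Without the 3 samples that stood apart, the difference was 6.42 points. Among CpGs with at least 10 reads in every sample it was 3.69 points (permutation p = 9e-05). Of the tested CpGs of any level only 111 met this minimum, so that value rests on a small part of the 2731.

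The tissue difference was of like size in both feeding regimes. After 24 h of 5-aza-dC, heads averaged 87.8% and bodies 81.5%, a difference of 6.32 points (SE 0.418; exact two-sided permutation p = 0.0005, the smallest that 2000 arrangements allow). After 48 h, heads averaged 88.0% and bodies 81.8%, a difference of 6.16 points (SE 0.259; exact permutation p = 0.00025, the smallest that 4000 arrangements allow). The change of the difference between regimes was -0.256 points, and a permutation of residuals did not find it beyond the spread between samples (p = 0.600, adjusted p = 0.696 over 8 tests of this kind). In order of harvest, the difference was 6.73, 6.08 and 6.15 points after 24 h of feeding and 7.12, 5.79 and 5.59 points after 48 h. It was largest at harvest straight after feeding in both regimes, yet the permutation test of a dependence on harvest time gave p = 0.128 (adjusted p = 0.512).

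**Figure D1:**
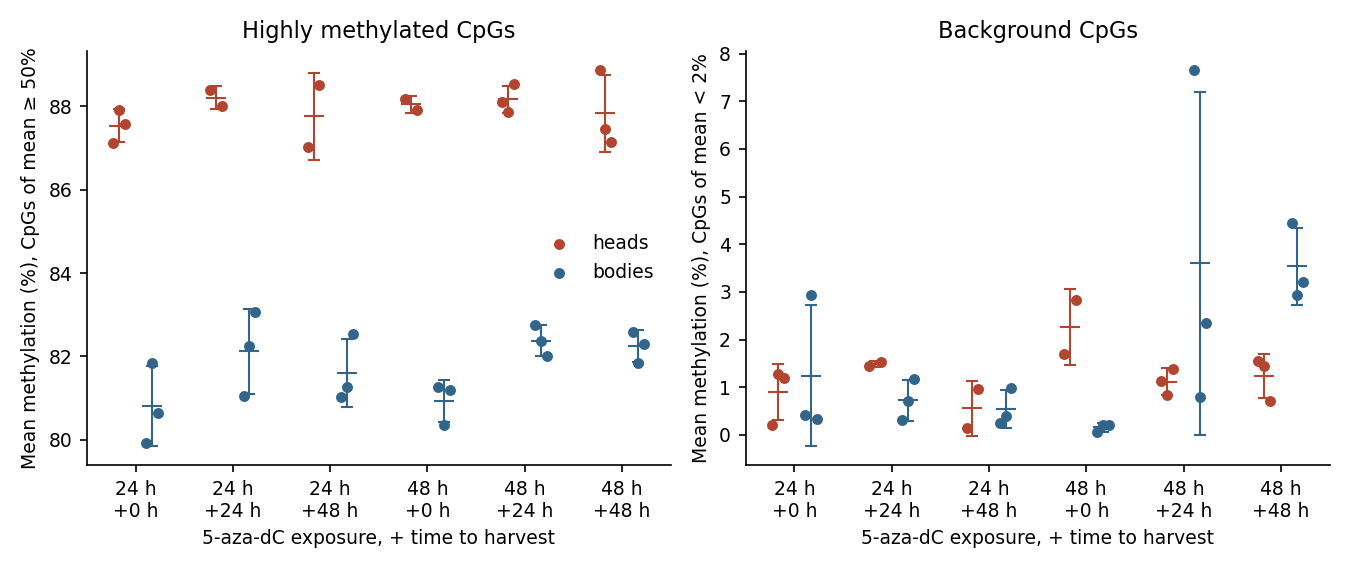
Mean methylation per sample (%) over the 2731 highly methylated CpGs (left) and over the 582826 background CpGs of mean under 2% (right), by exposure and time to harvest. Points are samples, wide ticks are means and bars are SD (n = 2 or 3); on the left all 15 head samples lie at 87.0% or above and all 18 body samples at 83.1% or below, while on the right the tissues overlap and 1 body sample reaches 7.67%.

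The plot of levels by sample also shows the background. Background CpGs, whose level reflects incomplete bisulphite conversion together with any low methylation, averaged 1.23% ± 0.643 in the 15 head samples and 1.63% ± 2.00 (SD) in the 18 body samples. The difference was -0.372 points (permutation p = 0.487), and 0.0258 points without the 3 samples that stood apart. Its sign was not stable: heads were 2.11 points higher at 0 h after 48 h of feeding, and 2.48 and 2.30 points lower in the later harvests of that regime. With each sample's background subtracted, the difference at highly methylated CpGs was 6.62 points.

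The difference was not the same at all levels of methylation. Of the highly methylated CpGs, 719 had a mean of 50% to 80%, and there heads averaged 73.5% ± 1.21 (SD, n = 15) and bodies 63.0% ± 1.40 (n = 18), a difference of 10.5 points (SE 0.465). At the 2012 CpGs with a mean of 80% or more, heads averaged 93.1% ± 0.351 and bodies 88.4% ± 0.759, a difference of 4.73 points (SE 0.176). Both differences had a permutation p of 1e-05, the smallest possible, and in both classes no head sample overlapped a body sample. Nearly complete methylation was also more common in heads: on average 39.7% of highly methylated CpGs stood at 95% or above in a head sample and 22.3% in a body sample (permutation p = 1e-05). This share depends on read depth, since few reads give 100% more often, and the shares of the tissues overlapped (33.7% to 59.7% and 11.9% to 55.4%). The share of these CpGs under 50% was 2.49% in heads and 5.53% in bodies (permutation p = 1e-05). It too overlapped (0.989% to 5.57% and 4.17% to 10.7%) and was highest in the sample of lowest read depth of each tissue.

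Since the mean over the 33 samples holds the values compared, CpGs were also ordered by their mean in the 18 sucrose samples, which take no part in the comparison. The difference rose and then fell along this scale. It was 0.0353 points at CpGs of 20% to 35% in sucrose, 6.71 points at 35% to 50%, and 10.1 and 10.4 points in the classes of 50% to 65% and 65% to 80%. It was 7.05 points at 80% to 90%, 3.54 at 90% to 95% and 1.80 at 95% to 100%. Seen as unmethylated shares, the ratio of bodies to heads was 1.28 at 50% to 65%, 1.51 at 65% to 80%, 1.70 at 80% to 90%, 1.66 at 90% to 95% and 1.5 at 95% to 100%. The ratio thus peaked at higher levels than the difference in points.

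**Figure D2:**
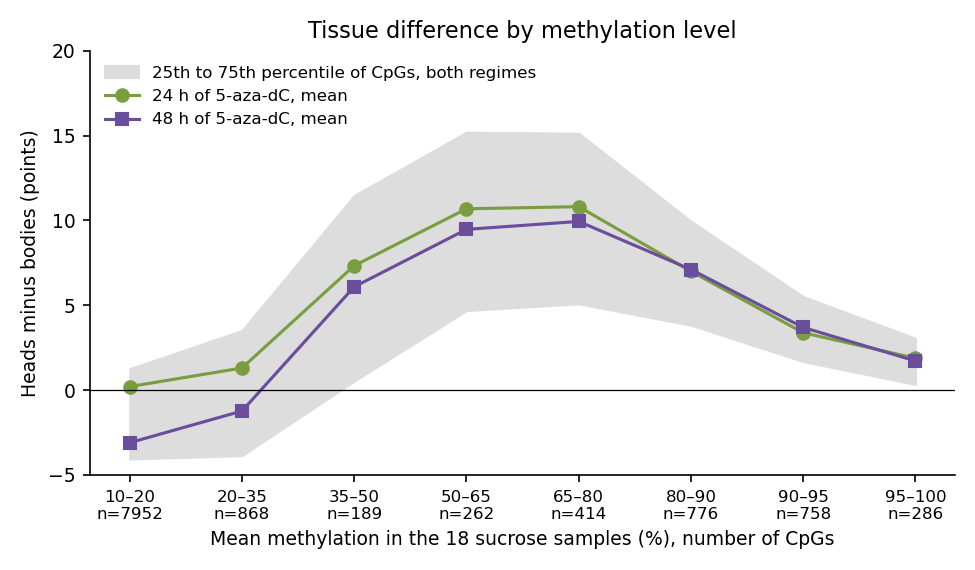
Heads minus bodies (percentage points, y axis) for CpGs grouped by their mean level in the 18 sucrose samples (x axis, with the number of CpGs in each class). Lines are means over CpGs within the 24 h and 48 h regimes and the grey band spans the 25th to the 75th percentile of CpGs over both regimes; both lines peak in the classes of 50% to 80% and come down to under 2 points at 95% to 100%.

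The difference was spread over the genome. Positions are those of the deposited table, whose genome build is not given in the sources used here, so CpGs were not assigned to genes. Over highly methylated CpGs, the mean difference was 6.26 points on chromosome 1 (562 CpGs), 6.45 on chromosome 2 (451), 6.61 on chromosome 3 (497), 6.04 on chromosome 4 (209) and 6.67 on chromosome 5 (174). On the other sequences it was 5.86 points (838 CpGs). The share of these CpGs with a higher mean in heads lay between 87.9% and 92.3% in all 6 classes. CpGs inside and outside clusters (runs of at least 3 tested CpGs with gaps of at most 100 bases) differed to a like degree. The median difference was 4.77 points at 1716 highly methylated CpGs inside clusters and 5.63 points at the 1015 outside them.

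Single CpGs were tested with a quasi-binomial logistic model of the reads, with regime and harvest time as strata and Benjamini-Hochberg adjustment over all 20459 CpGs (threshold 0.05). In all, 883 CpGs (4.32%) were called: 807 (3.94%) higher in heads and 76 (0.371%) lower. The lower calls depended on the processing: 41 were lower (721 higher) without the 3 samples that stood apart, and 9 were lower (858 higher) with limma on values centred on each sample's median. Testing only the 4283 CpGs with a mean of at least 20% gave 37 lower and 1245 higher calls. Higher calls lay mostly at high levels. Of the CpGs called higher, 749 were highly methylated, which is 27.4% of that class, and 11 highly methylated CpGs were called lower. Most CpGs of that class that were not called leaned the same way, since 89.5% of all 2731 had a higher mean in heads and the median difference was 5.06 points. At 1376 of them the difference was 5 points or more, at 94 it was 20 points or more, and at 42 it was -5 points or less. For scale, the median SD between samples at one such CpG was 7.21 points in heads and 8.94 in bodies. Of the 76 lower calls, 63 had a mean of 10% to 20%, a class that held 16176 of the 20459 tested CpGs. Among the 807 CpGs called higher, 577 had a higher mean in heads in all 6 combinations of regime and harvest time, as had 52 of the 76 in the other direction.

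Within a regime, single CpGs were at the limit of what these samples could show. After 24 h of 5-aza-dC 78 CpGs (0.381%) were called, all higher in heads. After 48 h 57 (0.279%) were called, 56 (0.274%) higher and 1 (0.00489%) lower. These counts were unstable, since leaving out any 1 of the 16 samples left 0 to 10 calls in the 24 h regime, and leaving out any 1 of the 17 left 7 to 51 in the 48 h regime. The lists shared 18 CpGs, 23.1% of the 24 h list and 31.6% of the 48 h list. The regimes share no samples, so each list can be read in the other. The difference had the same sign after 48 h at 77 of the 78 CpGs, with a median of 14.9 points where it had been 21.2, and 68 of them had an unadjusted p under 0.05. It had the same sign after 24 h at all 57, with a median of 18.4 points where it had been 23.1. Over all highly methylated CpGs, 73.9% were higher in heads in both regimes and 4.47% lower in both, and the differences of the regimes correlated with r = 0.548 over 2731 CpGs. Such CpGs share libraries and neighbours, so the correlation is a description. No CpG passed the test of a change in the tissue difference between regimes (0 calls, 1607 or 7.85% with an unadjusted p under 0.05, and 1 call with limma) or between harvest times (0 calls, 894 or 4.37% unadjusted, 0 with limma).

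**Figure D3:**
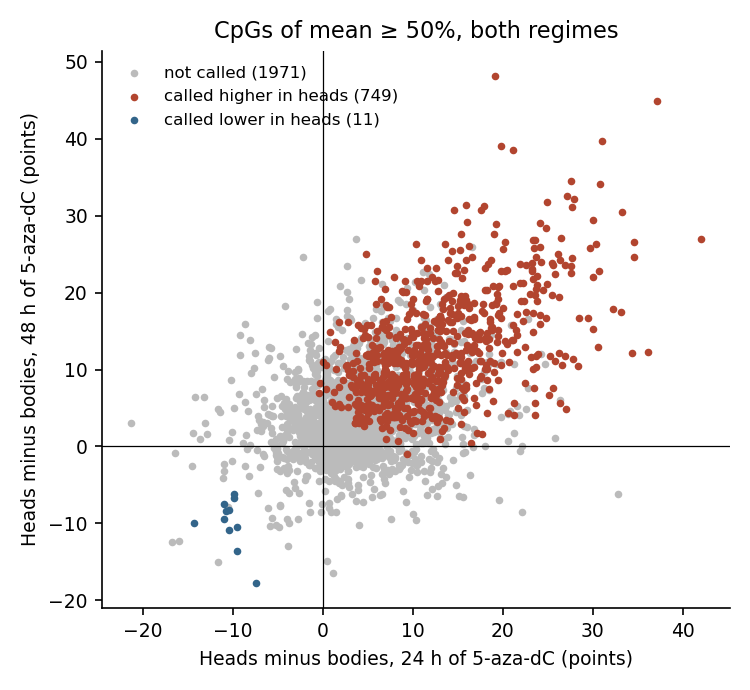
Heads minus bodies (percentage points) at each of the 2731 highly methylated CpGs after 24 h (x axis) and 48 h (y axis) of 5-aza-dC; colours give the call over both regimes. The 749 CpGs called higher in heads lie almost all in the upper right and the 11 called lower lie in the lower left.

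The sucrose samples, fed without inhibitor, also differed between tissues at these CpGs. At the 2492 highly methylated CpGs that also had reads in all 18 sucrose samples, sucrose heads averaged 87.3% ± 0.309 (SD, n = 9) and sucrose bodies 80.9% ± 0.579 (n = 9), a difference of 6.43 points (exact permutation p = 0.00025). The 5-aza-dC samples differed by 6.27 points at the same CpGs. The change from sucrose to 5-aza-dC was -0.186 points and was not beyond the spread between samples (permutation p = 0.609, adjusted p = 0.696). Tested in the sucrose samples alone, 80 of 19110 CpGs (0.419%) were called higher in heads and 1 (0.00523%) lower. Of the CpGs called higher in heads after 5-aza-dC, 747 had reads in sucrose. Of these, 724 were also higher in sucrose heads (75 of them called). The median over the 747 was 10.9 points in sucrose against 11.8 after 5-aza-dC. Over all 2492 highly methylated CpGs, 84.1% had the same sign in sucrose as after 5-aza-dC, and the sucrose median was 5.29 points. The 11 highly methylated CpGs called lower were all lower in sucrose heads too, each with an unadjusted p under 0.05 and with a median of -9.41 points. Lower calls at 10% to 20% behaved otherwise: 34 of 58 had the same sign in sucrose, and their median there was -0.508 points. Over all 15182 CpGs of that level with sucrose reads, 56.5% had the same sign in both, and the sucrose median was -1.54 points. No CpG of 19110 passed the test of a tissue difference that changed with the inhibitor (0 calls, 1007 or 5.27% with an unadjusted p under 0.05, and 0 with limma).

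Neighbouring CpGs were pooled into 505 clusters, which held 2274 tested CpGs, with a median of 4 CpGs, 71 bases and 124 reads per sample. On summed reads, 305 clusters (60.4%) were higher in heads and 2 (0.396%) lower. Of 386 clusters with a mean of 50% or more, 293 (75.9%) were higher, with a median difference of 5.65 points over the 386. Of 119 clusters under 50%, 12 were higher and none lower. Within regimes, 233 clusters (46.1%) were higher and 2 lower after 24 h, and 179 (35.4%) higher and 3 (0.594%) lower after 48 h. The lower clusters were the same 2 of chromosome 1 in both regimes, with one more after 48 h at chromosome 2, positions 28380977 to 28381044, a weakly methylated cluster (12.2% in heads, 16.1% in bodies) that was not called over both regimes. Leaving out any 1 sample gave 183 to 237 calls after 24 h and 153 to 177 after 48 h. Leaving out the 3 body samples of the 24 h regime with titles of another harvest time or none gave 151 after 24 h. In both regimes 148 clusters were called, all with the same sign, which is 63.0% of the 24 h list and 81.3% of the 48 h list. No cluster passed the test of a difference between regimes (0 calls, 29 or 5.74% with an unadjusted p under 0.05) or between harvest times (0 calls, 22 or 4.36% unadjusted).

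**Figure D4:**
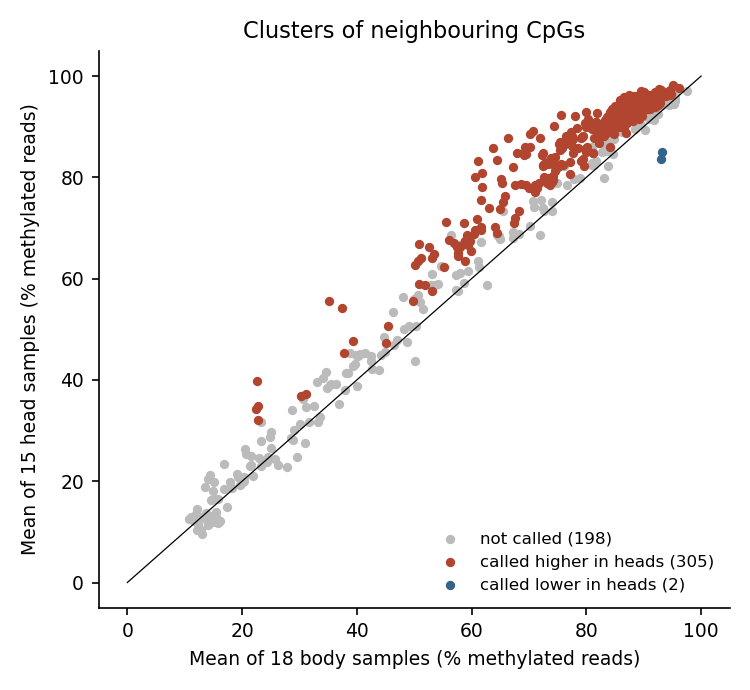
Mean methylation (% of reads) of each of the 505 clusters in the 15 head samples (y axis) against the 18 body samples (x axis); the line marks equal levels. The 305 clusters called higher in heads lie above the line at nearly all levels over 50%, and the 2 called lower lie below it near 93% in bodies.

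Most clusters with the widest gaps were at intermediate levels in bodies and closer to full methylation in heads. At scaffold GL341005, positions 22329 to 22461 (4 CpGs), bodies ranged from 49.7% to 75% with a median of 59.5%, and heads from 77.2% to 86.8% with a median of 83.8%. All 15 head samples lay above all 18 body samples there, and the difference was 22.2 points (quasi-binomial adjusted p = 2.68e-13). On chromosome 1, positions 12148094 to 12148112 (3 CpGs), bodies ranged from 50.0% to 73.6% and heads from 77.0% to 95.5%, again with no overlap. That difference was 21.6 points (adjusted p = 1.91e-08), with 16.5 points after 24 h and 26.8 after 48 h. A longer cluster of 7 CpGs on chromosome 1, positions 3427524 to 3427626, went from 70.7% ± 8.82 (SD, n = 18) in bodies to 89.3% ± 3.06 (n = 15) in heads without overlap (adjusted p = 1.54e-08).

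Some clusters differed while staying at intermediate levels in both tissues. On chromosome 3, positions 4846031 to 4846138 (3 CpGs), the level was 35.2% ± 5.78 (SD, n = 18) in bodies and 55.6% ± 8.22 (n = 15) in heads (adjusted p = 4.65e-07). Its first CpG, 4846031, differed more than the cluster, with 44.5% ± 10.3 in bodies and 77.5% ± 11.9 in heads. On chromosome 2, positions 7600899 to 7601286, 11 CpGs stood at 53.5% ± 3.75 in bodies and 65% ± 3.04 in heads, with no overlap between samples (adjusted p = 4.56e-09). The smallest gap among the clusters without overlap was at chromosome 2, positions 29376036 to 29376222, where 9 CpGs with a median of 428 reads per sample stood at 86.5% ± 2.25 in bodies and 93.0% ± 1.10 in heads. Both chromosome 2 clusters were chosen after their values were seen, for having no overlap, as 7 of the 505 clusters did. The other clusters of the naming rule, on chromosomes 1, 3 and 5, differed by 17.0 to 21.2 points, with adjusted p between 4.56e-09 and 1.10e-05.

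Of the 5 single CpGs with the largest differences by the naming rule, 3 came from one place on chromosome 3. Over the 439 bases from 6714806 to 6715244, all 4 highly methylated CpGs were called higher in heads. Their mean level ranged from 86.3% to 96.2% in heads, with a median of 93.1%, and from 42.6% to 75.1% in bodies, with a median of 57.9%. Head samples were all above body samples, and body samples varied far more (SD 9.22, n = 18) than head samples (SD 2.70, n = 15). The difference was 34.7 points, between 25.5 and 44.7 points in the 6 combinations, and it was 31.7 points in the sucrose samples. The naming rule asked for one sign in all 6 combinations at 3 of these CpGs, so that shared sign is no further result. At CpG 6715244 the level went from 53.7% ± 18.1 in bodies to 94.7% ± 5.65 in heads (41.0 points, adjusted p = 5.13e-08). At CpG 6714806 it went from 46.8% ± 11.0 to 82.1% ± 6.13, and at CpG 6715095 from 63.6% ± 9.66 to 96.2% ± 5.01. Between 6713896 and 6716986, the 24 other CpGs with reads in all 33 samples had means of 9.41% or less. Their differences ran from -1.98 to 2.79 points. The nearest of them lay 589 bases before and 457 bases after the 4 CpGs. CpGs without reads in all 33 samples were not examined. The place was singled out after its values were seen.

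Outside it, CpG 4747643 on chromosome 3 went from 55.7% ± 12.8 in bodies to 85.9% ± 5.78 in heads (30.6 points, adjusted p = 6.07e-06). On chromosome 2, CpG 23988593 ranged from 33.3% to 78.9% in bodies and from 80.0% to 100% in heads. With 3 of those on chromosome 3 (6714806, 6715095 and 6715244), it made up the 4 CpGs, of 20459 tested, at which head and body samples did not overlap. It was named for that reason after its values were seen.

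Among highly methylated CpGs, those called lower in heads in the main test came almost all from one block. On chromosome 1, between positions 521082 and 522363, 16 CpGs had means over 80% and were all lower in heads. Their mean level ranged from 76.9% to 91.1% in heads, with a median of 84.7%, and from 89.0% to 96.9% in bodies, with a median of 93.6%. The tissues overlapped at their edges, and here heads varied more (SD 3.77, n = 15) than bodies (SD 2.15, n = 18). The difference was -8.98 points, lay between -7.26 and -10.8 in the 6 combinations, and was -7.93 in sucrose, where all 16 CpGs were lower in heads as well. Of the 16, 10 passed the test alone, and these were 10 of the 11 highly methylated CpGs called lower among the 20459 tested. Both lower clusters lie in the block: positions 522288 to 522363 (7 CpGs) stood at 83.5% ± 6.75 in heads and 93.0% ± 3.16 in bodies (adjusted p = 1.64e-05), and positions 522072 to 522128 (5 CpGs) at 85.0% ± 6.64 and 93.2% ± 3.74 (adjusted p = 0.000435). The remaining lower CpG, 1512465 on chromosome 4, stood at 85.2% ± 10.1 in heads and 96.2% ± 4.44 in bodies, and lost its call with limma when samples were centred on their medians (adjusted p = 0.0504). The block and this CpG were singled out after their values were seen.

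**Figure D5:**
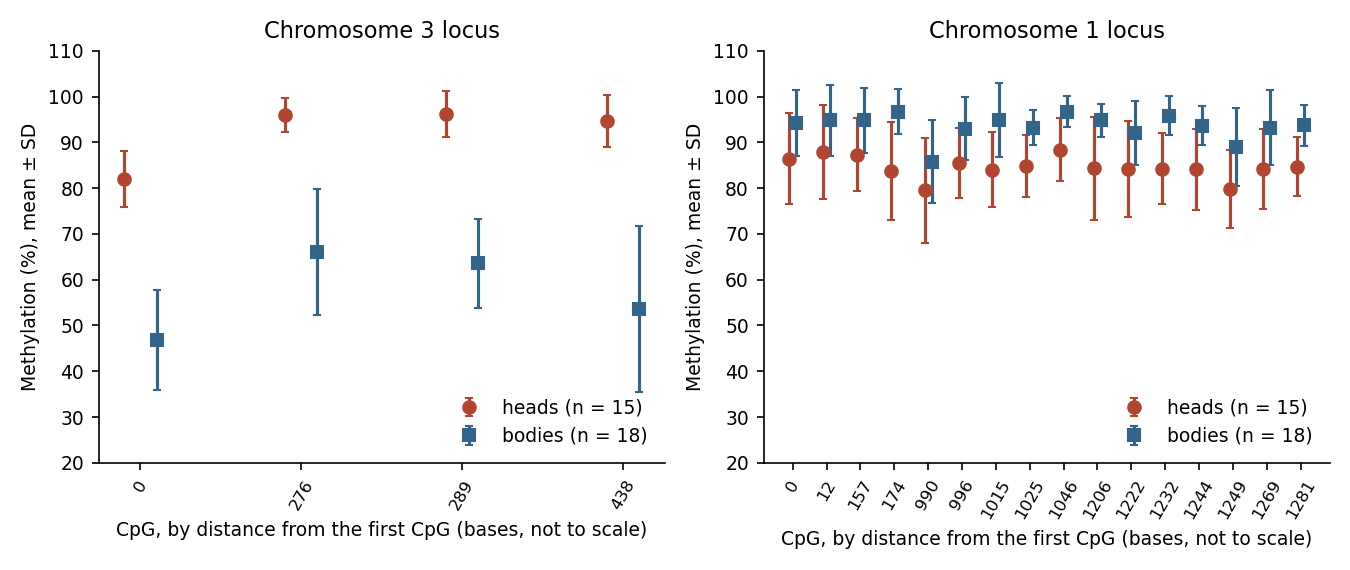
Mean methylation (%) of each highly methylated CpG at the chromosome 3 place (left, 4 CpGs) and in the chromosome 1 block (right, 16 CpGs) in heads (n = 15) and bodies (n = 18); bars are SD and CpGs are labelled by distance in bases from the first. Heads lie above bodies by 29.8 to 41.0 points on the left and below them at every CpG on the right.

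Differences of nearby CpGs went together. Between pairs of highly methylated CpGs at most 10 bases apart, the tissue differences correlated with r = 0.699 (444 pairs). Such pairs lie on the same reads, so the difference of one CpG in the 24 h regime was also set against that of its neighbour in the 48 h regime, which gave r = 0.421. This value between regimes was 0.414 at 11 to 30 bases, 0.183 at 31 to 60, 0.103 at 61 to 125, 0.301 at 126 to 250 and 0.207 at 251 to 1000 bases. The decline with distance was thus not even, with a low at 61 to 125 bases. These are descriptions over pairs that share CpGs.

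The mean levels of weakly methylated CpGs did not differ between tissues beyond the spread between samples over both regimes, although single CpGs were called (49 higher and 2 lower at 20% to 50%, 9 higher and 63 lower at 10% to 20%). At 1552 CpGs of 20% to 50%, heads averaged 26.5% and bodies 26.6% (difference -0.171 points, SE 1.13, permutation p = 0.876). At 16176 CpGs of 10% to 20%, heads averaged 12.1% ± 2.12 (SD, n = 15) and bodies 13.8% ± 2.54 (n = 18), a difference of -1.60 points (permutation p = 0.0648), which was -0.608 points (p = 0.410) without the 3 samples that stood apart. That difference was 0.0751 points after 24 h (exact permutation p = 0.936) and -3.27 points after 48 h (exact permutation p = 0.019, adjusted p = 0.0274 over 26 tests of tissue differences). The change between regimes was -3.43 points (permutation p = 0.0401), which did not pass adjustment over 8 tests (adjusted p = 0.321). It was -3.00 points (permutation p = 0.0487) without the 3 samples that stood apart and -1.18 points (p = 0.452) without the 6 body samples whose title and characteristics disagree on the harvest. In the 48 h regime background averaged 1.45% in heads and 2.43% in bodies. At its 0 h harvest heads were 2.11 points higher in background but 2.51 points lower at CpGs of 10% to 20%. At the 24 h and 48 h harvests heads were lower in both. The part of background in the result was not tested.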

How the data were processed

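Per the labels' protocols, bisulphite conversion used a Zymo Research kit, and paired-end reads came from TruSeq libraries on an Illumina instrument. The submitters' processing notes name cutadapt 1.12, Bismark 0.16, Bowtie2, SAMtools, methylKit 0.99.3 and R 3.3.1. The authors deposited one table with methylated and total read counts per CpG and sample, not normalized, with at least 3 reads wherever there are any. The strand of each read and the genome build are not given in the sources used here, so no genes were assigned and the gene test was not run. At 3 reads, 1 read moves a level by a large amount, and intervals cover the spread between samples only.

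Groups follow the labels' characteristics, and 6 of the 18 body samples have titles with another harvest time or none. Between samples of one group at most 0.952% of highly methylated CpGs had identical counts. Levels are unweighted means of per-CpG proportions. The quasi-binomial model used an F test on the deviance and a dispersion floored at 1 (Python 3.11.15, numpy 2.4.6, scipy 1.17.1). It was tested on simulated data. limma 3.58.1 in R 4.3.3 on arcsine-square-root proportions was the alternative. CpGs named are the 5 with the largest difference in each direction among those called overall and in each regime, with the same sign in all 6 combinations and a median of at least 10 reads. Clusters are the 10 by the same rule without the read minimum. The rule took in 18 CpGs (all higher) and 130 clusters (128 higher, 2 lower). The comparison, the lists and the tests were chosen with earlier results of these data known.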

Additional observations from a re-analysis of the deposited data

Results flagged for a closer look

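Samples set apart from the rest were sought in groups of 7 to 9 samples, each of a single tissue and regime. The groups covered the sample means, the named CpGs and some of the named clusters. In all, 60 groups were counted. Those of CpG 4846031 on chromosome 3 and of the cluster that starts there were counted but not screened, so fewer than 60 were checked. Of the groups checked, 10 held a sample set apart by the Dixon gap ratio at its 95% critical value. By chance alone about 1 in 20 groups does so. Background was 2.94% in body replicate 2 of the 24 h regime at the 0 h harvest (0.242% to 1.17% in the other 8) and 2.83% in head replicate 2 of the 48 h regime at the 0 h harvest (0.716% to 1.70% in the other 7). In the chromosome 1 cluster from 12148094, body replicate 3 of the 24 h regime at the 48 h harvest stood at 59.0% (67.2% to 73.6%). In the chromosome 1 block and the 24 h regime, body replicate 1 of the 24 h harvest stood at 86.6% in the cluster from 522072 (92.1% to 97.1%), and head replicate 1 of the 0 h harvest stood at 65.4% in the cluster from 522288 (80% to 88.5%).

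The other 5 were at single CpGs. At CpG 23988593 on chromosome 2 and in the 48 h regime, body replicate 1 of the 0 h harvest, a sample of low coverage, stood at 33.3% (58% to 76.1%) and head replicate 2 of the 48 h harvest at 80% (85.7% to 90.6%). On chromosome 3, head replicate 2 of the 24 h regime at the 24 h harvest stood at 95.8% at CpG 6714806 (75% to 80%). At CpG 6715244, body replicate 1 of the 24 h regime at the 0 h harvest stood at 15.8% (52% to 75%), and head replicate 1 of the 48 h regime at the 48 h harvest at 80% (92.6% to 97.4%).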

How the results depend on the processing

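The direction of the tissue difference at highly methylated CpGs and at clusters held under every alternative run. The background difference, which did not pass its test, changed sign in one alternative, from -0.372 to 0.0258 points without the 3 samples that stood apart. Leaving out each sample in turn gave 659 to 851 called CpGs over both regimes, 0 to 10 after 24 h, 7 to 51 after 48 h, and 0 for both interactions. It gave 278 to 308 called clusters (183 to 237 after 24 h, 153 to 177 after 48 h), 6.12 to 6.37 points at highly methylated CpGs, -0.606 to -0.0335 at background CpGs and -1.99 to -1.21 at CpGs of 10% to 20%. For the last, 7 of 33 such fits passed p of 0.05. The count over both regimes was 181 of the 4350 CpGs with at least 5 reads in every sample, 4 of the 111 with at least 10 reads, 409 (359 higher, 50 lower) with limma, 867 (858 higher, 9 lower) with limma centred on sample medians, 509 with a minimum mean of 0.05, where 76772 CpGs were tested, and 581 (535 higher, 46 lower) without the 6 body samples with other titles. With a minimum mean of 0.2 the count was 1282 of 4283 CpGs (1245 higher, 37 lower). Over both regimes 364 CpGs were called by both limma and the main model. For 24 h it was 0 with 10 reads, 12 with limma and 0 without the titled samples, and for 48 h 0, 20 and 5. The regime interaction gave 1 call with 10 reads and 1 with limma. Without the 3 samples that stood apart, an alternative chosen after seeing the data, 762 CpGs (721 higher, 41 lower) and 302 clusters were called, and the difference at CpGs of 10% to 20% was -0.608 points. Clusters after 24 h numbered 151 without the titled samples, and the regime interaction of CpGs of 10% to 20% was -1.18 points. The read minimum leaves fewer CpGs and the titles fewer samples; the cause of the other shifts was not tested. Of 714 repeats for named CpGs and clusters, 713 kept their side of the threshold. Nearly all of these features had been named for large differences called overall and in each regime, so keeping the call was largely fixed in advance. Most of these repeats left out 1 sample, and a CpG was repeated only in settings that kept it. Of the named CpGs, only 4846031 and 4747643 on chromosome 3 had at least 5 reads in every sample. Neither had at least 10 in every sample, so the other named CpGs were not repeated under a read minimum. No paired analysis was possible because the replicate numbers used here were given in accession order and the sample number in each title belongs to that sample alone. The gene test was not run, for want of an annotation of the table's build.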
